A study of Mus musculus with 5 samples.

Results

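The genes Lin28a, Lin28b, Igf2bp1, Igf2bp2, Igf2bp3 and Hmga2 were taken by name from the mouse mm9 annotation, and all 6 were found among 22350 protein-coding genes. H3K27me3, the trimethyl mark that Polycomb Repressive Complex 2 (PRC2) places on histone H3, was profiled by ChIP-Seq in mouse embryonic fibroblasts (MEFs), and the start and body of each gene were compared with the peak lists of 3 libraries. The cells came from a mid-gestation embryo with loxP sites in Eed, which encodes a PRC2 subunit, so that the lines analysed here shared that background. Lines were made by lentiviral transduction of H3.3K27R, H3.3K27M or human EZHIP from a constitutive promoter, followed by drug selection. H3.3K27M is the methionine mutant of diffuse midline glioma, EZHIP is the PRC2-binding protein of PFA ependymoma, and H3.3K27R, with arginine at the same residue, was taken as the reference here. Each group had 1 library, the lists carried positions without read counts, and depth was therefore unknown. All comparisons describe these libraries, without replicate error.

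LIN28A and LIN28B are RNA-binding proteins that bind precursors of the let-7 microRNA family and block their maturation. IGF2BP1, IGF2BP2 and IGF2BP3 bind messenger RNAs, including Igf2 mRNA, and affect their stability and translation. HMGA2 is an architectural chromatin protein that binds AT-rich DNA. These genes are known as oncofetal genes, since most are active in the embryo, decline with maturation and return in tumours, and several are targets of let-7. PRC2 is recruited to CpG islands and spreads its mark into broad domains.

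The K27R list held 12845 peaks over 22.1% of the genome, the K27M list 3736 peaks over 1.93%, and the EZHIP list 4992 peaks over 1.38%. Neighbouring peaks touched in places in K27R (a gap of 0 bp) but lay at least 5200 bp apart in K27M and 1200 bp in EZHIP. The study's methods name a single gap limit for these calls, and why the shortest gaps differed was not tested. Beside 30.1% of all protein-coding genes, the start of 1 of 12 fibroblast markers (Pdgfra) lay in K27R peaks. Among markers of other cells it was 6 of 6 neural, 2 of 6 epithelial, 2 of 4 blood, 2 of 4 endothelial, 1 of 3 muscle, and 1 of 5 pluripotent or germ cell genes. Peak lists do not measure expression, so that the cell type could be checked no further.

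The 6 genes fell into 3 arrangements that followed the gene families only in part. Lin28a and Lin28b were covered in full by K27R peaks and kept peaks over their starts with either inhibitor. Igf2bp1 and Igf2bp3 had no peak over the gene in any list, but a K27R peak began a short way upstream of their start. Igf2bp2 and Hmga2 had no peak in or near the gene in any list.

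**Figure D1:**
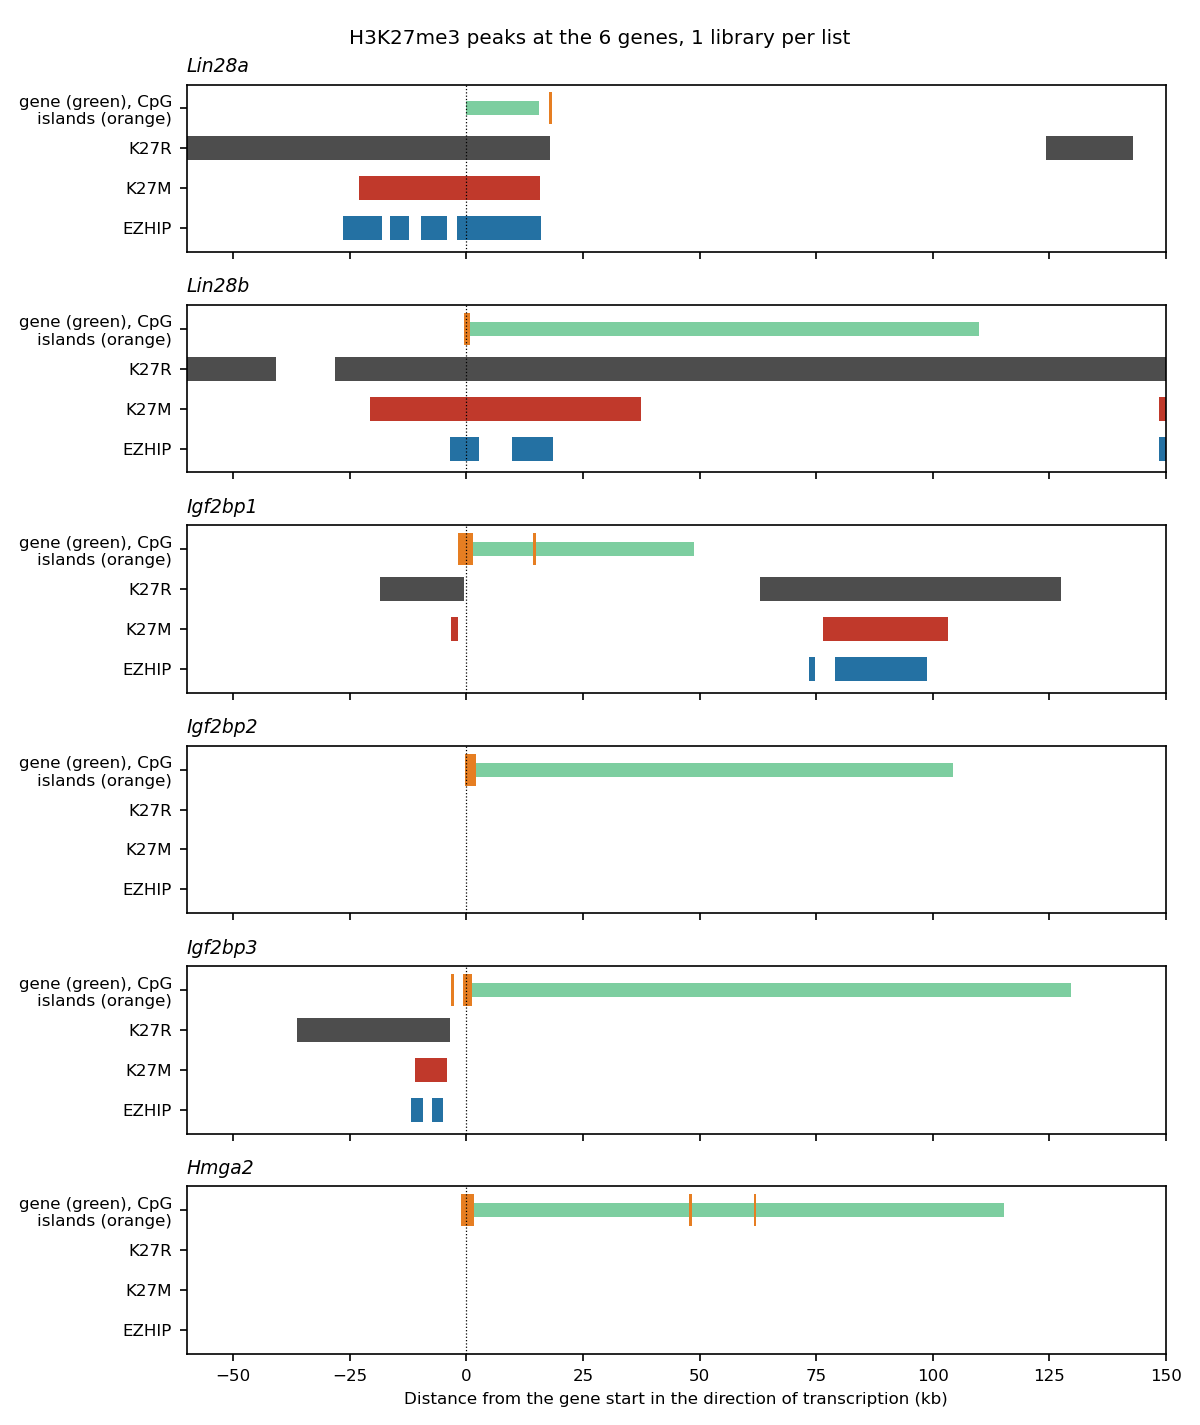
H3K27me3 peaks of the K27R, K27M and EZHIP libraries around the 6 genes, plotted as distance in kb from the gene start in the direction of transcription. Green bars are gene bodies, orange bars CpG islands (drawn at least 0.6 kb wide), and gray, red and blue bars peaks; the Lin28 genes lie inside K27R peaks, the peaks near Igf2bp1 and Igf2bp3 stop upstream of the start, and Igf2bp2 and Hmga2 are free of peaks over the plotted span.

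The promoter sequences are shown for 4 genes because CpG content varied among the marked and among the unmarked members. Each is the 250 bases before the annotated gene start on the coding strand in mm9, in lower case with every CG in capitals. Lin28a (chr4:133574757-133575006, minus strand) and Lin28b (chr10:45206202-45206451, minus strand) lay in peaks of all 3 lists. Igf2bp2 (chr16:22163373-22163622, minus strand) and Hmga2 (chr10:119913526-119913775, minus strand) lay in none.
Lin28a: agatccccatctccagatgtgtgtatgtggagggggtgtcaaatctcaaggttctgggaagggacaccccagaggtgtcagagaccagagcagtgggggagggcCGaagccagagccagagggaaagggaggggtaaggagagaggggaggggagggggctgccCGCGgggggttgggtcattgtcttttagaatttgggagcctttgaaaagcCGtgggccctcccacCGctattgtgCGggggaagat
Lin28b: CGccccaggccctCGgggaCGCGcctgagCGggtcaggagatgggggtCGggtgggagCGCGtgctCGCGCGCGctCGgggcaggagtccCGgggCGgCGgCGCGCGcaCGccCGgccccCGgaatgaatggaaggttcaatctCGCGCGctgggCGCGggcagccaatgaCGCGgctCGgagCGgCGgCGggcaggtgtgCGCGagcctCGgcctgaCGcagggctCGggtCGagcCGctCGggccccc
Igf2bp2: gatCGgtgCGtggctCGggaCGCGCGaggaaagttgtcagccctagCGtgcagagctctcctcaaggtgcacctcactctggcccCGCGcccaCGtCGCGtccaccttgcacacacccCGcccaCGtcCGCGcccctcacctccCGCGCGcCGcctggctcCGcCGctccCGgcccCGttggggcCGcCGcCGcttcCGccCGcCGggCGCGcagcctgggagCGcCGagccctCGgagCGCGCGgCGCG
Hmga2: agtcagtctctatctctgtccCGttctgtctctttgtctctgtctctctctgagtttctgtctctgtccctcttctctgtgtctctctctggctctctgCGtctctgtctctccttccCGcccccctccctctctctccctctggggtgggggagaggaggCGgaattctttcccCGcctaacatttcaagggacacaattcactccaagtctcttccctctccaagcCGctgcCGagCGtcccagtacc

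These windows held 6 CG in Lin28a, 41 in Lin28b, 40 in Igf2bp2 and 8 in Hmga2. Over the 500 bp before the start, Lin28a had 12 CG, close to the median of 13 for all protein-coding genes. The same stretch held 75 CG in Lin28b, and 0.510% of genes had more. It held 55 in Igf2bp2, 43 in Igf2bp3, 29 in Igf2bp1 and 22 in Hmga2. Counted at the outermost annotated starts, the densest promoter (Lin28b) and the sparsest (Lin28a) were thus both marked. Igf2bp2, with nearly as many CG as Lin28b over 250 bases, was unmarked. The RefSeq start of Lin28b lies 16.19 kb into the gene, and CG before that start were not counted.

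Start sites were examined first, to ask which members carried the mark at their promoter. The start of 2 of 6 members, Lin28a and Lin28b, lay in a K27R peak, where 30.1% of all protein-coding genes had theirs. The same 2 starts lay in K27M peaks and in EZHIP peaks, where the shares of all genes were 9.02% and 7.73%. Of the genes with a start in K27R peaks, 29.9% kept a K27M peak and 25.6% an EZHIP peak over the start. For those without a CpG island within 1 kb, the shares were 11.3% and 10.0%. They were therefore above 29.9% and 25.6% for genes with an island, such as Lin28b at its outermost start. Gene bodies gave the same count: 2 of 6 members were touched by a peak in each list, against 36.1% of genes in K27R, 11.5% in K27M and 10.6% in EZHIP. With 6 genes, 2 in K27R is near the share of all genes. When a peak within 5 kb of the start was counted, K27R and K27M each gave 4 of 6 members and EZHIP 2 of 6, against 38.2%, 11.4% and 11.2% of all genes. The genes added were Igf2bp1 and Igf2bp3, and the EZHIP peak of Igf2bp3, at 5.05 kb, lay just outside this limit.

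Lin28a (ENSMUSG00000050966.2, chromosome 4 from 133559245 to 133574756, minus strand, 4 exons) had its whole body of 15.5 kb inside peaks of all 3 lists. The K27R region around it spanned 99.0 kb (133556801 to 133655800), reaching 17.95 kb downstream and 81.04 kb upstream of the start. The K27M peak spanned 38.8 kb (133559001 to 133597800) and ended 23.04 kb upstream of the start. It was among the wider K27M peaks, with 6.96% of that list wider. In EZHIP the gene lay in a peak of 18.0 kb (133558801 to 133576800), followed upstream by peaks of 5.6, 4.2 and 8.4 kb that reached 26.44 kb from the start. These 4 EZHIP peaks were separated by gaps of 2200, 2400 and 1600 bp. When peaks up to 10000 bp apart were merged, they formed 1 peak of 42.4 kb, slightly longer than the K27M peak.

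Within the K27R region of Lin28a, K27M peaks covered 39.2% and EZHIP peaks 36.6%. The stretch shared by both inhibitors was 32.6 kb, which was 84.0% of the K27M length and 90.1% of the EZHIP length. The residual mark thus lay over the same part of the region in both lines, from the 3′ end of Lin28a to 23.04 kb upstream of its start. The covered length of Lin28a in K27M and in EZHIP was 100% of that in K27R. Of the genes touched by a K27R peak, 8.18% had a share of 100% or more in K27M and 5.16% in EZHIP, while 68.3% and 70.7% had no cover left.

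No CpG island lay within 1 kb of the Lin28a start, and the nearest was 17.7 kb downstream at the edge of the K27R region, outside the K27M and EZHIP peaks. An island lay within 1 kb of the start in 54.0% of genes and in 5 of 6 members, with Lin28b counted by its outermost start. Of the genes with a start in K27R peaks and no such island, 11.3% kept a K27M peak over the start and 10.0% an EZHIP peak. Lin28a was therefore one of a minority of island-free promoters that kept the mark with either inhibitor. The region also held the starts of Aim1l, Cd52, Dhdds and the predicted gene Gm13060. None of these starts lay in a K27M or EZHIP peak, so that among the coding genes of the region the residual peaks were over Lin28a alone. The start of a long noncoding RNA, Gm13061, lay in them too.

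Lin28b (ENSMUSG00000063804.6, chromosome 10 from 45096426 to 45206201, minus strand) lay wholly inside a K27R region of 256.2 kb (44978201 to 45234400), and 2.59% of K27R regions were wider. Its body of 109.8 kb was covered over 109.78 kb (100%) in K27R. The cover was 37.4 kb (34.1%) in K27M, and 11.4 kb (10.4%) was left in EZHIP. The K27M cover came from a single peak of 58.2 kb (45168801 to 45227000) that ran from 20.8 kb upstream to 37.4 kb downstream of the start. The EZHIP cover came from a peak of 6.2 kb over the start (45203601 to 45209800) and one of 8.8 kb inside the gene (45187601 to 45196400), 7200 bp apart. Merging peaks up to 10000 bp apart joined them and raised the EZHIP cover of the gene to 18.6 kb.

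The EZHIP peaks of Lin28b lay over its annotated starts. The annotation gives 4 coding transcripts from 3 start positions. The outermost start (45206201) and one 0.62 kb inside it lay in the 6.2 kb peak, together with a CpG island of 1187 bp (45205488 to 45206674) that was fully covered in all 3 lists. The third start (45190007), 16.19 kb into the gene and also the start of the RefSeq model, lay in the 8.8 kb peak, where there was no island. In K27M a single peak held all of them. EZHIP peaks in the K27R region amounted to 23.0 kb, all of it inside the K27M peaks, which amounted to 71.2 kb.

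**Figure D2:**
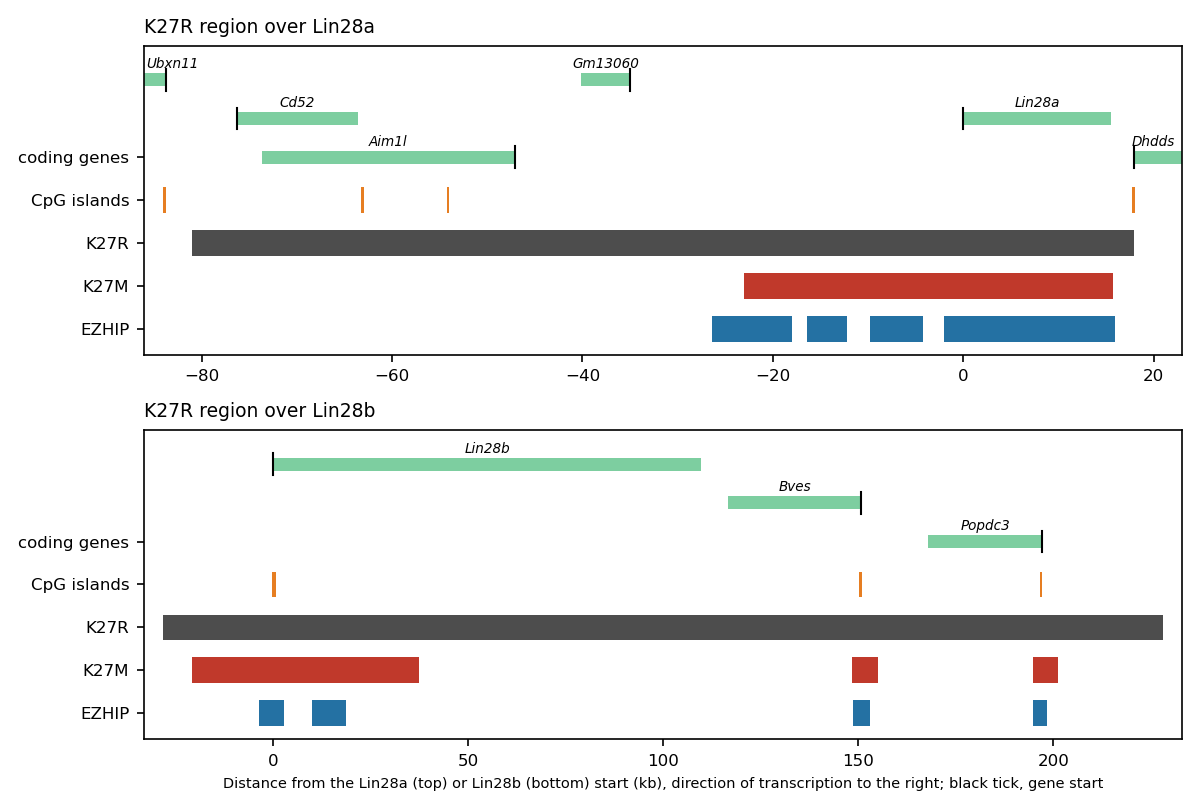
K27R regions over Lin28a (top) and Lin28b (bottom) in full, with 5 kb on either side, plotted as distance in kb from the gene start; bars show coding genes (green, with a black tick at each start), CpG islands (orange, drawn at least 0.3 kb wide) and the peaks of each library. Residual peaks surround Lin28a without an island beneath them, while at Lin28b the 3 islands of the region, at Lin28b, Bves and Popdc3, each lie in a K27M and an EZHIP peak.

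The Lin28b region held the starts of 2 further coding genes, Bves and Popdc3, of the Popeye family of membrane proteins in muscle. The Bves start lay in a K27M peak of 6.6 kb and an EZHIP peak of 4.4 kb. At Popdc3 the peaks spanned 6.4 kb and 3.6 kb. Peaks of both inhibitors covered all 3 islands of this region, whereas none of the 3 islands of the Lin28a region was in a residual peak. The cover of Lin28b stayed longer in K27M (37.4 kb) than in EZHIP also after merging (18.6 kb), a difference that could not be set against replicate spread.

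**Figure D3:**
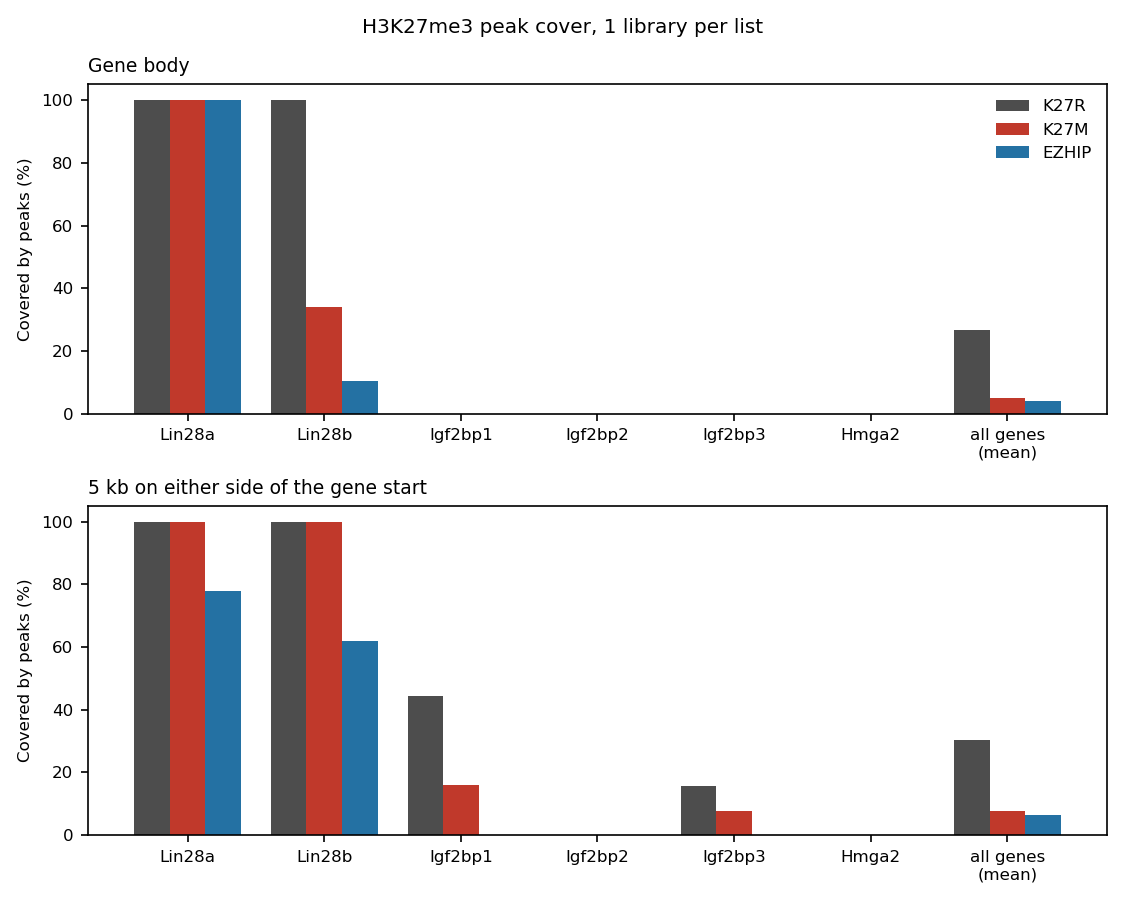
Percent of the gene body (top) and of 5 kb on either side of the gene start (bottom) covered by peaks of each library, for the 6 genes and as the mean of all protein-coding genes. Lin28a keeps 100% of its body in each list, and Lin28b has 100%, 34.1% and 10.4% in K27R, K27M and EZHIP. Igf2bp1 and Igf2bp3 have cover around the start in K27R and K27M and none in EZHIP. The nearest EZHIP peak of Igf2bp3 begins at 5.05 kb, just outside the plotted 5 kb, while that of Igf2bp1 lies at 73.45 kb.

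Igf2bp1 (ENSMUSG00000013415.3, chromosome 11 from 95818477 to 95867254, minus strand) had 0 kb of its 48.8 kb body in peaks. A K27R region of 18.0 kb (95867801 to 95885800) began 0.55 kb upstream of the start. A K27M peak of 1.6 kb (95869001 to 95870600) lay in it, 1.75 kb upstream of the start. That peak was one of the narrowest of its list, with 94.0% of K27M peaks wider, and it was absent when peaks under 2000 bp were left out, which moved the nearest K27M peak to 76.45 kb. In EZHIP no peak lay in the K27R region, and the nearest was 73.45 kb from the start, on the other side of the gene. Of 5 kb on either side of the start, 44.5% was covered in K27R, 16.0% in K27M and 0% in EZHIP.

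The edge of the mark lay inside the CpG island of Igf2bp1. This island of 3248 bp (95865885 to 95869132) spanned the start, and 41.0% of it, the part farthest upstream, lay in the K27R region. The K27M peak reached 132 bp of it, or 4.06%. The sequence of that stretch (chr11:95869001-95869132, read on the minus strand, CG in capitals) is shown because it is the only part of an island at an Igf2bp start that carried a residual peak. It held 8 CG. At 132 bp, the stretch was shorter than the 200 bp steps of the peak boundaries, so that the peak lists do not resolve it. The 1.6 kb peak it belongs to was absent when peaks under 2000 bp were left out.
Igf2bp1 upstream stretch: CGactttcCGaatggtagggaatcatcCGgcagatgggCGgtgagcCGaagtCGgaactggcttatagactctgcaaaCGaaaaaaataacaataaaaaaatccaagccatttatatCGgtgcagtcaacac

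Igf2bp3 (ENSMUSG00000029814.8, chromosome 6 from 49035220 to 49164953, minus strand) had 0 kb of its 129.7 kb body in peaks, as did its start island of 1847 bp. A K27R region of 32.8 kb (49168401 to 49201200) began 3.45 kb upstream. Unlike at Igf2bp1, both inhibitors kept peaks in it: K27M a peak of 6.8 kb (49169201 to 49176000), and EZHIP peaks of 2.4 and 2.6 kb with a gap of 1800 bp. The nearest edges were 4.25 kb and 5.05 kb upstream of the start. The inhibitor peaks shared 4.2 kb, which was 61.8% of the K27M length and 84.0% of the EZHIP length. The K27R region held no island and no coding start, but a further island (49167604 to 49168372) ended 28 bp before its edge. This gap is shorter than the 200 bp steps of the peak boundaries. The lists therefore do not resolve whether that island lies outside the mark.

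Igf2bp2 (ENSMUSG00000033581.10, chromosome 16 from 22059082 to 22163372, minus strand) was the member of its family with no peak near its start. Its nearest K27R peak lay 119.03 kb upstream and overlapped Etv5, an ETS transcription factor gene. Measured from the gene body, a K27R peak lay nearer, 51.08 kb past the 3′ end. The nearest EZHIP peak was in the upstream K27R peak that overlapped Etv5, 122.83 kb from the start. The nearest K27M peak lay 491.23 kb upstream at Dgkg. That EZHIP peak was 2.4 kb wide, and with a minimum width of 5000 bp the nearest EZHIP peak was 466.77 kb away. Its start island of 2321 bp and all 9 annotated transcript starts were outside the peaks of every list. For comparison, the median distance from start to peak over all genes was 19.8 kb for K27R peaks, 207 kb for K27M peaks and 196 kb for EZHIP peaks.

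Hmga2 (ENSMUSG00000056758.8, chromosome 10 from 119798331 to 119913525, minus strand) had the most distant K27R peak of the 6 genes. It lay 220.12 kb from the start, or 104.93 kb past the 3′ end of the gene, and 12.7% of all genes were farther from a K27R peak. The nearest EZHIP peak, at 234.72 kb, lay inside that K27R region, and the nearest K27M peak was at 346.72 kb. An island of 2691 bp spanned the Hmga2 start, and none of the 3 islands in the gene lay in a peak. Of the next 2 coding genes on each side (Llph, Tmbim4, Msrb3 and 4921513I03Rik), none had its start in a peak of any list. Llph had 82.5% of its body in K27R peaks.

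**Figure D4:**
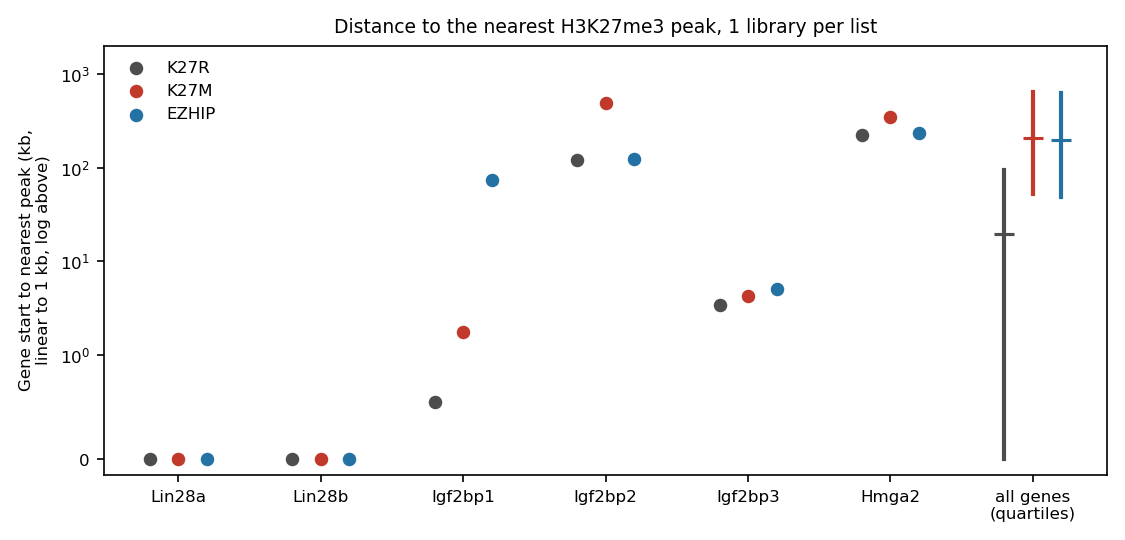
Distance in kb from each gene start to the nearest peak of each library (0 when the start lies in a peak; the axis is linear up to 1 kb and logarithmic above). At the right, lines give the quartiles and ticks the median of all protein-coding genes; at Igf2bp1 the K27M peak lies at 1.75 kb and the EZHIP peak at 73.45 kb, while at Igf2bp3 the 3 lists lie between 3.45 and 5.05 kb.

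An island spanned the start of Lin28b (its outermost start), Igf2bp1, Igf2bp2, Igf2bp3 and Hmga2. Among these 5 genes, the start of 1 lay in peaks, the same gene in each list. Of all genes with an island within 1 kb of the start, 25.1% had the start in K27R peaks, 13.2% in K27M and 11.2% in EZHIP. Of the 12 coding genes that flank the Igf2bp genes, 2 on each side, the start of 3 (B4galnt2, Etv5 and Svs1) lay in K27R peaks. This is near the 30.1% of all protein-coding genes. B4galnt2, a glycosyltransferase gene 42.3 kb past the 3′ end of Igf2bp1, also had its start in K27M and EZHIP peaks. It was the only 1 of the 12 to do so, beside 9.02% and 7.73% of all genes. Its body was covered over 36.4 kb in K27R and 12.2 kb in K27M, and over 7.6 kb in EZHIP. Gpnmb next to Igf2bp3 and Senp2 next to Igf2bp2 had no peak over start or body. Liph near Igf2bp2 and Tra2a near Igf2bp3 had the start outside peaks but 48.9% and 36.2% of the body in K27R peaks. Among the 8 coding genes that flank the Lin28 genes, the start of 6 lay in K27R, 3 in K27M and 2 in EZHIP peaks. The shares of all protein-coding genes were 30.1%, 9.02% and 7.73%. Most of these genes lay in the K27R regions of the Lin28 genes themselves. The exception was Grik2, 3613.1 kb upstream of Lin28b, with its start in K27R and K27M peaks. Those with a start in K27M or EZHIP peaks all flanked Lin28b, and none flanked Lin28a.

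The genes whose cover was most like that of the Lin28 genes were sought over 6 values, the percent of gene body and of 5 kb around the start in each of the 3 lists. For Lin28a these were Gm10053 and Fam123a, at 0.260 and 0.830 percentage points. In Lin28a and in both of these genes, every value was 100% except the EZHIP cover around the start. That cover was 78.0% in Lin28a, 78.3% in Gm10053 and 78.8% in Fam123a, so that the distances rested on this value alone. For Lin28b they were Atp12a and Kcna6, at 6.54 and 10.4 percentage points. Atp12a had 28.5% of its body covered in K27M and 13.2% in EZHIP.

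let-7 microRNAs connect the members, since LIN28 proteins act on let-7 and let-7 acts on mRNAs that match its seed. The RefSeq mature sequences of 9 mouse let-7 family members shared the seed, bases 2 to 8, shown in capitals for 3 of them to show that they differ only outside it.
let-7a: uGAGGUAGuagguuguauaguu
let-7g: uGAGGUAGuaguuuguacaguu
miR-98: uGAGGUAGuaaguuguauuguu

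The motif CTACCTC, which pairs with this seed, was counted on the coding strand in the longest annotated 3′ untranslated region. It occurred 4 times each in Lin28b, Igf2bp1 and Hmga2, 2 times in Lin28a and once in Igf2bp2 and Igf2bp3. Of 21925 genes with such a region, 8.03% held at least 1 match and 0.0410% held 4 or more. The region was 6340 bp long in Igf2bp1, 4448 bp in Lin28b and 3017 bp in Hmga2. It was 2778 bp in Lin28a, 2124 bp in Igf2bp3 and 1787 bp in Igf2bp2. A longer region has more room for matches, and the shares were not matched for length. Among the genes with 4 matches, Lin28b was covered by K27R peaks, while Igf2bp1 and Hmga2 were not. Matches are letters in a sequence, and binding was not measured.

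Other genes of the Lin28 and let-7 axis were then counted from a list of 43, of which 33 were protein-coding. The start of 9 of the 33 lay in K27R peaks (27.3%, against 30.1% of all genes). In K27M it was 5 (15.2%, against 9.02%), and in EZHIP 3 (9.09%, against 7.73%). Among Lin28 partners and processing factors, 2 of 13 had the start in peaks of every list. These were Msi1, an RNA-binding protein of neural progenitors, and Trim71, a let-7 target first known as lin-41. Msi1 had 26.1 kb covered by K27R peaks, against 7.19 kb with K27M and 5.79 kb with EZHIP. In Trim71 these lengths were 16.29, 10.69 and 7.89 kb. The starts of the other 11 lay outside the peaks of every list. Among them, named here after their values were seen, were Drosha, Dgcr8 and Dicer1, which process microRNA precursors, and the terminal uridylyl transferase genes Zcchc11 and Zcchc6. Outside their starts, Dgcr8 had 34.0% of its body in K27R peaks and 5.67% in K27M. Syncrip, an RNA-binding protein gene, had 5.8 kb in K27R. The Syncrip start was 0.01 kb from a K27R peak, a distance below the 200 bp steps of the peak boundaries.

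Of 21 growth and oncofetal genes, 7 had the start in K27R peaks, 3 in K27M and 1 in EZHIP, beside 30.1%, 9.02% and 7.73% of all protein-coding genes. Ccnd2, which encodes cyclin D2, kept 2.27 kb of its 25.27 kb of K27R cover with either inhibitor. At Cdk6, a G1 kinase, and at Gpc3, a glypican gene on chromosome X, the start was in a K27M but not in an EZHIP peak. Mycn, named here after its values were seen, had its start in a K27R peak and its whole body of 5.82 kb covered. Its K27M peak covered 1.4 kb with the edge 0.32 kb from the start, and in EZHIP there was no cover. Others, also named afterwards, had more cover in EZHIP. Plag1, a zinc finger transcription factor gene, had 2.0 kb covered with K27M and 11.2 kb with EZHIP, and Afp, which encodes alpha-fetoprotein, 0 kb and 3.2 kb. Hmga1, the paralog of Hmga2 and also named afterwards, had its start outside the peaks of every list. Igf2, H19 and Ccnd1 lay on distal chromosome 7 beyond the last peak of every list (at 144.79 Mb in K27R and 144.52 Mb in K27M and EZHIP), so that a start outside peaks says little there. None of the 6 members lay past the last peak of its chromosome.

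Of 9 annotated let-7 precursor genes, 2 lay in K27R and K27M peaks and 0 in EZHIP peaks. These were Mirlet7f-2 and Mir98, neighbours on chromosome X. With X left out, the shares of protein-coding starts in peaks were 28.2% in K27R, 8.94% in K27M and 7.96% in EZHIP. With X they were 30.1%, 9.02% and 7.73%. Shares for X alone were not counted. A trait of these 2 genes, or of Gpc3, therefore cannot be told apart from one of the chromosome. Among 1576 annotated microRNA genes, 23.2% lay in K27R peaks, 4.63% in K27M and 3.24% in EZHIP. The other 7 let-7 genes, all autosomal, were outside the peaks of every list, with Mirlet7b the nearest to one, 0.65 kb from a K27R peak.

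**Figure D5:**
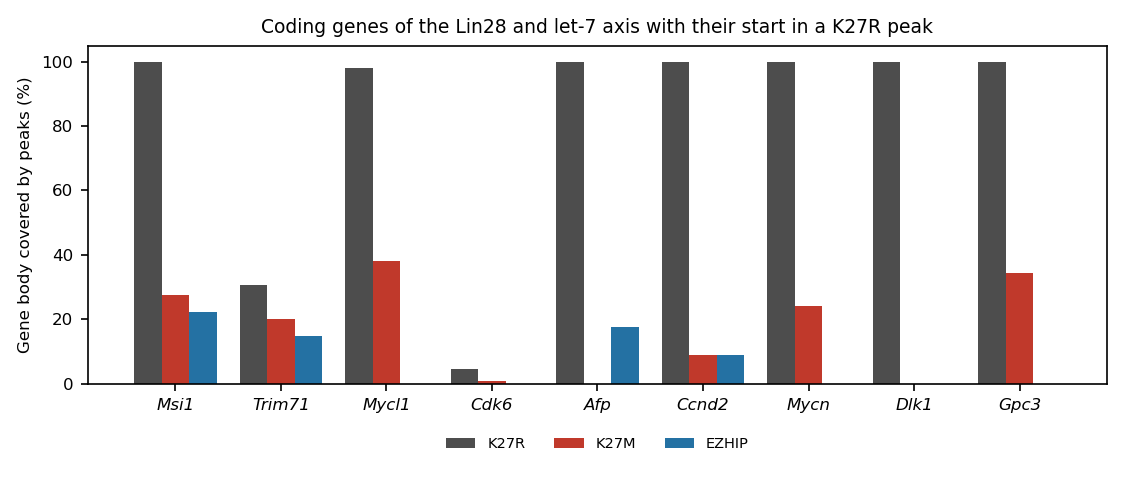
Percent of the gene body covered by peaks of each library in the 9 coding genes of the Lin28 and let-7 axis whose start lay in a K27R peak (1 library per list, so that bars carry no error). Msi1, Trim71 and Ccnd2 kept cover with both inhibitors, while Mycl1, Cdk6, Mycn and Gpc3 had cover in K27M and none in EZHIP, Afp had cover in EZHIP (17.6%) and none in K27M, and Dlk1 had none in either.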

How the data were processed

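The authors deposited, for each H3K27me3 ChIP-Seq library, a list of broad peaks as base positions, without read counts or scores. Reads had been aligned with Bowtie (1.0.0, submitters' processing notes) to mm9 and a spike-in genome, and broad peaks called with MOSAiCS-HMM. Whether spike-in scaling entered the calls is not given in the sources used here. The Control and EEDnull libraries were not analysed here. Groups came from the sample titles.

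All peak boundaries were multiples of 200 bp, and NCBIM37 (mm9) sequence and GENCODE vM1 genes were used without conversion, counting positions from 1. The start is the 5′ end of the gene model. CpG islands (23678) were segments over 200 bp, scored 17 for the C of each CG and -1 otherwise, that had a G+C content of 50% or more and a ratio of observed to expected CG over 0.6. RefSeq promoters (GRCm38.p6) of 5 of 6 members were matched exactly in mm9. No test was run, because each group had 1 library. The members and gene lists were chosen with earlier results of these data known.

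All members were named. Axis genes were named when their start lay in a K27M or EZHIP peak, and neighbours when among the next 2 coding genes on each side or in the same K27R region. Likeness was the Euclidean distance over 6 cover values, and the 2 nearest genes were named. Alternatives were minimum peak widths, merged peaks, other starts, distances and overlaps, flanks, longer islands and autosomes only. Interval and island routines were tested on simulated data. Python 3.11.15, numpy 2.4.6, pandas 2.3.3 and numba 0.67.0 were used.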

Additional observations from a re-analysis of the deposited data

How the results depend on the processing

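The counts of member starts and gene bodies in peaks were the same with minimum peak widths of 2000 or 5000 bp, with peaks closer than 10000 bp merged, and, for starts, with any annotated transcript start. A peak within 1000 bp of the start was found for 3 members in K27R, the added gene being Igf2bp1. Within 5000 bp the members rose from 2 to 4 in K27R and to 4 in K27M, by Igf2bp1 and Igf2bp3. For all 43 Lin28 and let-7 axis genes, noncoding ones included, the count rose from 11 to 17 in K27R and from 7 to 11 in K27M. In EZHIP it rose from 3 to 4. A peak lay this near the start in 38.2%, 11.4% and 11.2% of all protein-coding genes in K27R, K27M and EZHIP. Of 126 alternative values for single members, 112 stayed within 1.5-fold and 14 moved further. Many of the 112 could not have moved. A minimum width adds no cover to a gene without any, and a start inside a peak has no distance to lose when measured from the gene body. The count is therefore no measure of stability. The 14 included the EZHIP cover of Lin28b, 18.6 kb after merging. With a minimum width of 5000 bp the nearest EZHIP peak of Igf2bp3 lay at 468.55 kb and that of Igf2bp2 at 466.77 kb, and the nearest K27M peak of Hmga2 at 557.68 kb. Measured from the gene body, the nearest K27R peak lay at 51.08 kb for Igf2bp2 and 104.93 kb for Hmga2. No paired analysis was possible because each group had 1 library. Depth was unknown, so that the absence of a peak means only that none was called.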
